A study of Mus musculus with 4 samples.

Results

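The WNT pathway members described here are the 51 genes on the array whose names begin with *Wnt*, *Fzd*, *Sfrp*, *Dkk* or *Rspo* and a number, or are *Axin2*, *Lef1*, *Tcf7*, *Nkd1*, *Nkd2*, *Notum*, *Wif1*, *Frzb*, *Lgr5* or *Znrf3*, out of 29924 gene names. They were chosen by name and not by any measured value, but with earlier results of these data known. Ureters of newborn (P0) NMRI mice were cultured for 8 d with DMSO or with 2 µM purmorphamine, a small molecule that activates SHH signaling, to ask which transcripts respond to the loss of *Pparg* and to the return of SHH signaling. *Pparg-cKO* ureters carried *Pax2-cre/+; Pparg (fl/fl)*, and control ureters carried *Pparg (fl/?)*, a label that leaves the second allele open. The *Pax2-cre* line recombines in the nephric duct, the ureteric epithelium and the renal collecting ducts, and the deletion removes exons 2 and 3. RNA from pools of ureters sorted by sex was hybridized to 4 two-color arrays, with DMSO in one color and purmorphamine in the other for a given genotype and sex. There were thus 4 groups with n = 2 pools, male (replicate 1) and female (replicate 2), and since the colors were exchanged between them, sex and dye cannot be told apart within a group. How many ureters or litters a pool held is not given, and the p-values measure only the spread between these pools.

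WNT ligands are secreted lipid-modified glycoproteins that bind Frizzled receptors and, in the canonical branch, stabilize β-catenin, which activates target genes together with TCF/LEF factors. R-spondins act through LGR receptors and keep Frizzled receptors on the cell surface, whereas secreted Frizzled-related proteins, Dickkopf proteins, WIF1 and NOTUM restrain the signal outside the cell. *Axin2*, *Notum*, *Nkd1*, *Lgr5* and *Znrf3* are widely used transcriptional read-outs, and several of them are negative feedback genes. In the embryonic ureter, WNT ligands from the epithelium act on the surrounding mesenchyme.

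Values are log2 intensities of the brightest tested probe of each gene, after background correction and normalization within and between arrays, and they are compared between pools of the same gene only. Where groups are said not to overlap, this describes the 2 pools of each group and is not a test. How often such groups do not overlap over all genes was not counted. Of the 51 members, 43 were tested, with a probe whose 2 pools were well above background in 1 group or more. The 8 others were *Dkk4*, *Rspo4*, *Wnt2*, *Wnt3*, *Wnt3a*, *Wnt7a*, *Wnt8a* and *Wnt8b*, and 6 of the 51 members were not well above background in any of the 8 channels. All 10 Frizzled genes and all 5 secreted Frizzled-related genes were well above background in all 8 channels, against 10 of 19 ligands. *Wnt9b* and *Wnt16* passed this filter only through the *Pparg-cKO* pools, and *Dkk1* only through the control purmorphamine pools.

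Promoters of the called members in RefSeq (GRCm38.p6) are shown because these genes carry the calls described below, in either direction. The 250 bases before the start are given for 5 of the 8 members called in any comparison that had a promoter entry, with the core letters CTTTG or their reverse complement in capitals. The order is *Axin2* (chr11:108920099-108920348, plus strand), *Wnt4* (chr4:137277385-137277634, plus), *Wnt9b* (chr11:103749822-103750071, minus), *Sfrp2* (chr3:83766071-83766320, plus) and *Wif1* (chr10:121033754-121034003, plus).
Axin2: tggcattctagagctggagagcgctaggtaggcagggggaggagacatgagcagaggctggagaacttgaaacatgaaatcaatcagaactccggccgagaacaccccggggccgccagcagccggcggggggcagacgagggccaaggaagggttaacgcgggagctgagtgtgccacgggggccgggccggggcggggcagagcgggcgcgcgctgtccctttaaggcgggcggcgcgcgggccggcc
Wnt4: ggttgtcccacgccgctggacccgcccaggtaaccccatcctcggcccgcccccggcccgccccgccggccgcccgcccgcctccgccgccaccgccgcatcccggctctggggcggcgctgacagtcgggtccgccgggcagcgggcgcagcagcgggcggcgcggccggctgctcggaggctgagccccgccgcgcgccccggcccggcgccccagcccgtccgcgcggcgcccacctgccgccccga
Wnt9b: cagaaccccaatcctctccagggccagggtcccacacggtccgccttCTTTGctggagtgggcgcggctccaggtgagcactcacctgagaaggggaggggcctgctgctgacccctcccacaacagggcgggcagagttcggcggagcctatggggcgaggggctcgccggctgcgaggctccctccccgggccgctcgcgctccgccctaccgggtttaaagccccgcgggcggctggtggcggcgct
Sfrp2: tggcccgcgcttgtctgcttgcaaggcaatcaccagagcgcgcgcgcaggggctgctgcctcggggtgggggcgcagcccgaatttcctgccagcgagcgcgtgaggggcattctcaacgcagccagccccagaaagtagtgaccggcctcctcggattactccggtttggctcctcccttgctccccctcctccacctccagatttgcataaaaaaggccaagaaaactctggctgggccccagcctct
Wif1: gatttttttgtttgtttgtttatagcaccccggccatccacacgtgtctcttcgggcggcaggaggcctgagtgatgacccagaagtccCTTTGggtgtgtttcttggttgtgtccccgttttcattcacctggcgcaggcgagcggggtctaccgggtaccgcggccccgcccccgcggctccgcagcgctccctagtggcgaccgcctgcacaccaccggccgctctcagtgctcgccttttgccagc

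Both strands of 300 bases around each start were searched for the TCF/LEF letters (CTTTG followed by A or T and again by A or T), for the core CTTTG that they contain, and for the GLI letters TGGGTGGTC. The TCF/LEF letters were in 16.9% of the 32851 promoters of all genes and in 6 of the 41 promoters of the members, which belonged to *Dkk1*, *Fzd7*, *Lef1*, *Wnt3*, *Wnt5b* and *Wnt11*. They were in 0 of the 8 called members with an entry, and the core alone was in *Wif1* and *Wnt9b*, against 53.9% of all promoters. The GLI letters were in 0.253% of all promoters and in 0 of those of the members. These matches describe the letters of these windows only.

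*Pparg* itself was not lower in the pools labelled *Pparg-cKO*. Its log2 intensity was 14.79 (male) and 15.31 (female) in control DMSO pools, 15.10 and 15.18 in control purmorphamine pools, 15.55 and 15.58 in *Pparg-cKO* DMSO pools and 15.95 and 16.10 in *Pparg-cKO* purmorphamine pools, where it was called as higher (0.88 ± 0.17, adjusted p = 0.0474). Where its probe lies relative to the deleted exons was not determined, so that this level does not check the genotype labels. By in situ hybridization of fetal *Pparg-cKO* ureters, the paper found a *Pparg* transcript without the deleted exons. It was above control at the later fetal stage. *Shh* was at 12.54 and 12.41 in control and at 9.64 and 9.46 in *Pparg-cKO* DMSO pools, a difference of -2.93 ± 0.23 (adjusted p = 0.00224). All 11 urothelial and 6 smooth muscle markers were tested, that is, well above background in the pools of 1 group or more. So were all 5 nerve and glia markers, so that this does not check the tissue label.

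Without *Pparg*, in the DMSO cultures, *Wnt9b*, *Wnt10a*, *Wnt4*, *Wnt6* and *Wnt16*, the antagonist gene *Sfrp2* and the feedback genes *Notum* and *Axin2* were higher than in control ureters. These 8 of the 43 tested members passed limma's adjusted p of 0.05 as higher, where 2.00% of the 20229 tested genes did, and 0 passed as lower, where 1.90% did. Without the 3 members that were not well above background in either pool of a genotype with DMSO (*Wnt9b*, *Wnt16* and *Wnt2b*), 6 of 40 passed. The median log2 difference over the tested members was 0.18, against 0.0042 over all tested genes, and 30 members lay above 0 and 13 below. In a mixed tissue, more cells of a type and more RNA per cell cannot be told apart.

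**Figure D1:**
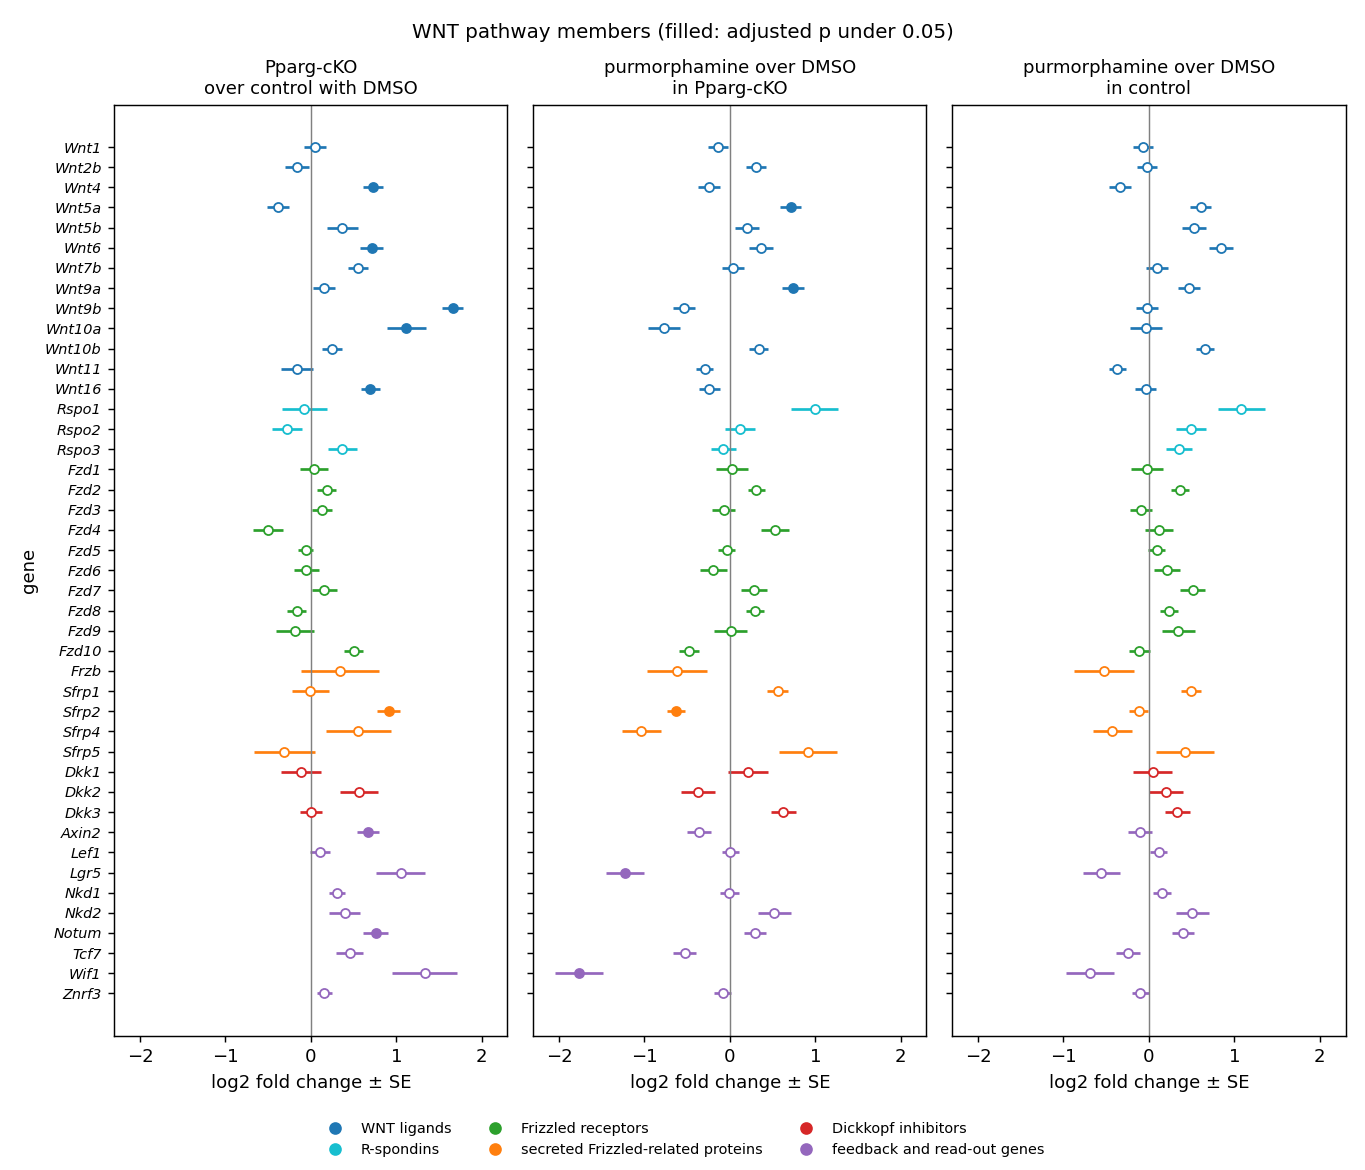
Log2 fold change (x axis, point) with its standard error (bar) of each of the 43 tested members (y axis, grouped and colored by role) in 3 comparisons (*Pparg-cKO* over control with DMSO, purmorphamine over DMSO in *Pparg-cKO* and in control). Filled points passed an adjusted p of 0.05 in limma. In the left panel the 8 filled points all lie above 0, the middle panel has 2 above and 3 below, and the right panel has none.

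Among the ligands, *Wnt9b*, known from the Wolffian and collecting ducts as an inducer of neighboring mesenchyme, differed the most. Its log2 intensity was 6.41 (male) and 6.25 (female) in control DMSO pools, 6.27 and 6.34 with purmorphamine, 7.96 and 8.02 in *Pparg-cKO* with DMSO and 7.58 and 7.33 in *Pparg-cKO* with purmorphamine. All 4 mutant pools lay above all 4 control pools. Since the probe was not well above background in any control pool, the difference is a bound, with *Wnt9b* at least 2.9-fold higher in *Pparg-cKO* with DMSO (adjusted p = 0.00164, limma) and at least 2.12-fold higher with purmorphamine (adjusted p = 0.00879). The probe lies at chr11:103588882-103588941 (mm9).

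*Wnt4*, which acts in nephron formation, was measured far above background. It measured 13.53 (male) and 13.60 (female) in control DMSO pools, 13.34 and 13.11 in control purmorphamine pools, 14.27 and 14.31 in *Pparg-cKO* DMSO pools and 14.14 and 13.96 in *Pparg-cKO* purmorphamine pools. The genotypes did not overlap under either treatment. The log2 difference was 0.73 ± 0.12 (SE) with DMSO (adjusted p = 0.0222) and 0.82 ± 0.12 with purmorphamine (adjusted p = 0.0199). The second *Wnt4* probe gave 0.75 with DMSO. The probe used lies at chr4:136855342-136855401 (mm9).

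*Wnt6*, an epithelial ligand in several organs, lies at chr1:74831461-74831520 (mm9) by its probe. Its levels were 10.13 and 10.07 in the male and female control DMSO pools and 10.84 and 10.78 in the *Pparg-cKO* DMSO pools, a log2 difference of 0.71 ± 0.13 (adjusted p = 0.0366). With purmorphamine the control pools stood at 10.77 and 11.10 and the mutant pools at 11.08 and 11.25, so that the genotypes overlapped and the difference was 0.23 ± 0.13 (adjusted p = 0.494).

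*Wnt10a*, a ligand of skin and skin appendages, was at 11.23 and 10.71 in control DMSO pools, 10.93 and 10.95 in control purmorphamine pools, 11.80 and 12.38 in *Pparg-cKO* DMSO pools and 11.27 and 11.37 in *Pparg-cKO* purmorphamine pools. The groups did not overlap, but the male pair differed by 0.57 and the female pair by 1.66. The mean difference was 1.12 ± 0.23, with an adjusted p of 0.0497 at the edge of the threshold. *Wnt16* was close to background, at 6.38 and 6.24 in the control DMSO pools, 6.28 and 6.27 in control pools with purmorphamine, 7.08 and 6.94 in the *Pparg-cKO* DMSO pools and 6.68 and 6.85 in *Pparg-cKO* pools with purmorphamine. The 4 mutant pools lay above the 4 control pools. With DMSO the *Pparg-cKO* level was at least 1.48-fold higher, as neither control pool was well above background. The limma adjusted p of 0.0204 is of the measured difference and not of this bound, and *Wnt16* too was tested only through the *Pparg-cKO* pools. Its second probe was well above background in only 1 of the 8 channels. *Wnt7b*, at 9.48 and 9.40 in control and 9.998 and 9.991 in *Pparg-cKO* DMSO pools, did not overlap between the genotypes but had an adjusted p of 0.0569 for its difference of 0.55 ± 0.12. With purmorphamine *Wnt7b* was at 9.40 and 9.67 in control and 10.10 and 9.96 in *Pparg-cKO* pools.

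**Figure D2:**
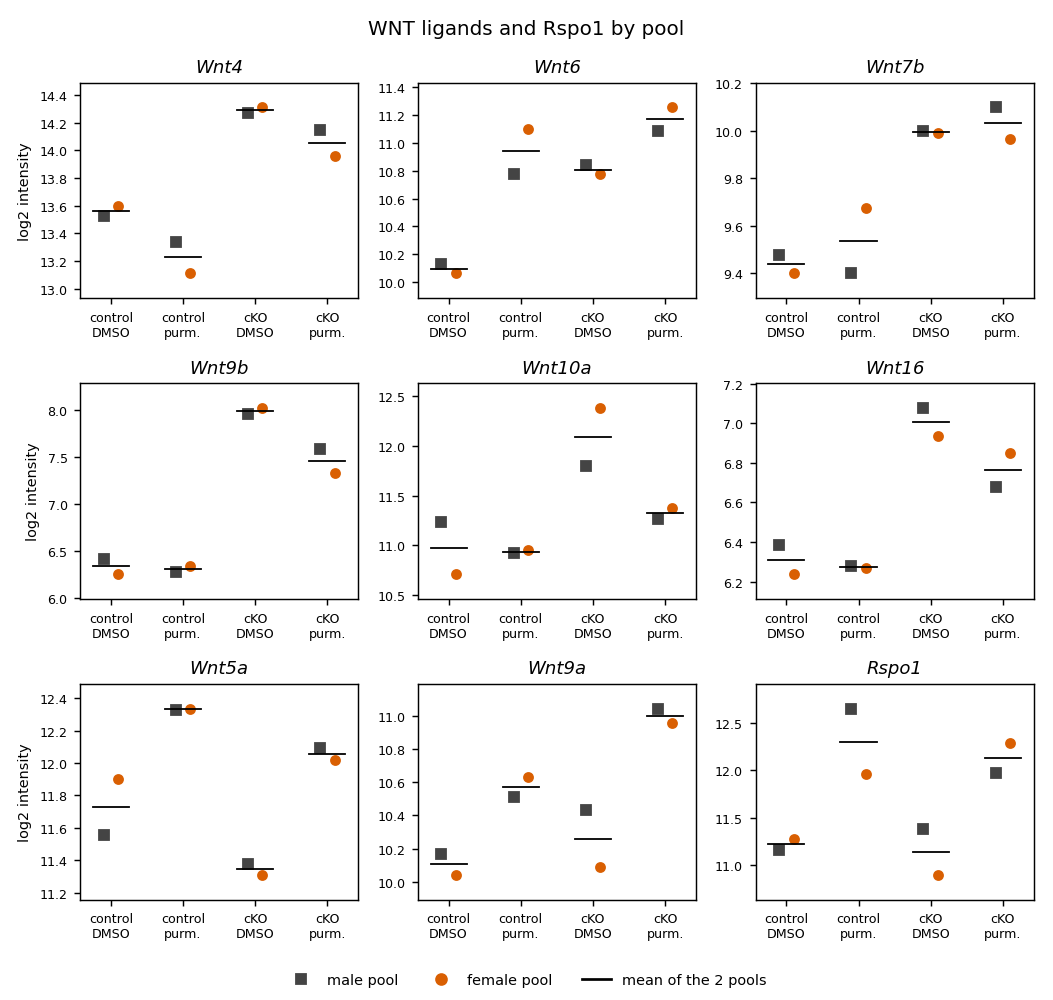
Log2 intensity (y axis, own scale per gene) of 8 WNT ligands and *Rspo1* in the 4 groups (x axis), with squares for the male pool, circles for the female pool and a line at their mean. In *Wnt4*, *Wnt7b*, *Wnt9b*, *Wnt10a* and *Wnt16*, the *Pparg-cKO* pools stand above the control pools of the same treatment, with DMSO and with purmorphamine. In *Wnt5a*, *Wnt6*, *Wnt9a* and *Rspo1*, the purmorphamine pools stand above the DMSO pools of the same genotype, in both genotypes.

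The remaining ligands did not pass the test between the genotypes with DMSO. *Wnt5a*, the main noncanonical ligand of mesenchyme, was the lowest of them with a log2 difference of -0.38 ± 0.13 (adjusted p = 0.194). R-spondins were not called either, with *Rspo3* at 0.37 ± 0.17 and *Rspo1* at -0.08 ± 0.26.

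None of the 10 Frizzled receptor genes passed the test in any comparison, and their median log2 difference with DMSO was -0.0064. *Fzd10* came closest. It measured 10.93 and 10.90 in control DMSO pools and 11.44 and 11.39 in *Pparg-cKO* DMSO pools, without overlap, for a difference of 0.50 ± 0.11 (adjusted p = 0.0601), and it was 10.90 and 10.97 in *Pparg-cKO* pools with purmorphamine there, close to the control DMSO pools. *Fzd4*, a receptor for WNT ligands and Norrin, lay on the other side at -0.50 ± 0.17 (adjusted p = 0.225).

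Among the secreted inhibitors, *Sfrp2* was called. It was at 14.47 and 14.47 in control DMSO pools, 14.26 and 14.44 in control purmorphamine pools and 15.23 and 15.53 in *Pparg-cKO* DMSO pools, which stood above all others, and the difference was 0.91 ± 0.14 (adjusted p = 0.0163). Its probe lies at chr3:83577864-83577923 (mm9). The other 4 genes of that family ranged from -0.31 to 0.56, and *Frzb*, a Frizzled-related protein, spread widely, with 11.69 and 10.28 in the control DMSO pools. Of the Dickkopf genes, which block the LRP co-receptors, *Dkk2* had the largest difference, 0.57 ± 0.22 (adjusted p = 0.275).

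All 9 feedback and read-out genes had a log2 difference above 0 in *Pparg-cKO* with DMSO, from 0.11 to 1.33 with a median of 0.45, and 2 of them passed the test. *Axin2*, a scaffold of the β-catenin destruction complex and a common canonical target, was at 9.71 and 9.83 in control DMSO pools, 9.80 and 9.54 in control purmorphamine pools, 10.54 and 10.33 in *Pparg-cKO* DMSO pools and 10.03 and 10.11 in *Pparg-cKO* purmorphamine pools. Both mutant groups lay above all control pools. The difference was 0.67 ± 0.13 with DMSO (adjusted p = 0.0419) and 0.41 ± 0.13 with purmorphamine (adjusted p = 0.183), and the dimmer second probe gave 0.50 with DMSO.

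*Notum*, a secreted enzyme that removes the lipid from WNT proteins, was at 12.93 and 13.34 in the control DMSO pools and 13.83 and 13.97 in the *Pparg-cKO* DMSO pools. The difference was 0.76 ± 0.15 (adjusted p = 0.0404). With purmorphamine it was at 13.52 and 13.55 in control and at 14.14 and 14.26 in *Pparg-cKO* pools, again without overlap, for a difference of 0.67 ± 0.15 (adjusted p = 0.0705).

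*Wif1*, a secreted inhibitor that binds WNT proteins, and *Lgr5*, an R-spondin receptor, had larger differences with more spread. *Wif1* was at 13.20 and 12.51 in control and 13.97 and 14.39 in *Pparg-cKO* DMSO pools, a difference of 1.33 ± 0.38 (adjusted p = 0.134). *Lgr5* was at 10.86 and 10.92 against 12.03 and 11.85, a difference of 1.05 ± 0.29 (adjusted p = 0.12). Neither gene overlapped between the genotypes, but neither passed the test. The second *Lgr5* probe was at background in all 8 channels. The other 5 feedback and read-out genes did not pass the test in any comparison. *Tcf7*, which encodes the TCF1 factor, was at 10.85 and 10.36 in control DMSO pools, 10.38 and 10.34 in control purmorphamine pools, 11.08 and 11.04 in *Pparg-cKO* DMSO pools and 10.54 and 10.52 in *Pparg-cKO* purmorphamine pools. Its *Pparg-cKO* DMSO pools were the highest, and the difference with DMSO was 0.45 ± 0.16 (adjusted p = 0.215) on one probe and 0.45 on the other. *Lef1*, which encodes another factor of that family, ranged over all 8 pools only from 8.22 to 8.47, with a difference of 0.11 ± 0.12 (adjusted p = 0.757).

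*Nkd1* and *Nkd2* encode inhibitors of Dishevelled. *Nkd1* was at 13.76 and 13.87 in control DMSO pools, 13.99 and 13.95 in control purmorphamine pools, 14.14 and 14.09 in *Pparg-cKO* DMSO pools and 14.07 and 14.16 in *Pparg-cKO* purmorphamine pools, and its difference with DMSO was 0.30 ± 0.09 (adjusted p = 0.164). The groups with DMSO did not overlap, but the second and dimmer probe of *Nkd1* gave -0.06. *Nkd2* was at 13.39 and 13.88 in control DMSO pools, 14.24 and 14.04 in control purmorphamine pools, 14.16 and 13.91 in *Pparg-cKO* DMSO pools and 14.52 and 14.58 in *Pparg-cKO* purmorphamine pools, with the highest values in the last of these, and its difference with DMSO was 0.40 ± 0.18 (adjusted p = 0.365). The second *Nkd2* probe gave 0.71, with 11.18 and 11.85 in control and 12.41 and 12.05 in *Pparg-cKO* DMSO pools. *Znrf3*, whose product removes Frizzled receptors from the cell surface, was close to background, from 6.47 to 6.78 over the 8 pools, with a difference of 0.16 ± 0.09 (adjusted p = 0.486).

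The study's own filter, an intensity above 100 and a change of at least 1.5-fold in both sexes, carries no test. It took 7 of the 31 members above that intensity as higher in *Pparg-cKO* with DMSO, where 2.59% of 15423 genes were, and 0 as lower, where 2.92% were. These were *Lgr5*, *Notum*, *Sfrp2*, *Wif1*, *Wnt4*, *Wnt6* and *Wnt7b*. *Wnt9b* and *Wnt16* lay under the intensity threshold.

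The limma calls rested on few pools. With any 1 of the 4 arrays left out, 0 to 2 of the 8 calls remained. Without the female control array it was 0, without the male control array and without the female *Pparg-cKO* array it was *Wnt9b*, and without the male *Pparg-cKO* array it was *Sfrp2* and *Wnt9b*. Some kidney genes moved with the group. The summed intensity of 7 tested of 8 kidney tubule and glomerulus markers was 687 to 1021 in control and 1407 to 1499 in *Pparg-cKO* DMSO pools, with *Umod*, *Slc12a1* and *Nphs1* called as higher and 4 not called, *Lrp2* at 0.43, *Aqp2* at -0.10, *Cubn* at -0.19 and *Slc34a1* at -0.22. *Slc12a3* was not well above background in any channel. The kidney sums were low for this intensity scale. Of the called kidney markers, the study's filter took *Umod* as higher but not *Slc12a1* or *Nphs1*. The summed intensity of the 7 tested kidney markers was 698 to 719 in control and 733 to 744 in *Pparg-cKO* pools with purmorphamine. The 4 tested of 5 fat cell markers summed to 160900 to 207900 in control and 69460 to 86770 in *Pparg-cKO* DMSO pools, and the 5 endothelial markers to 7855 to 11960 and 14270 to 15240. The 3 tested of 4 mesothelial markers summed to 7353 to 8959 in control and 14480 to 18270 in *Pparg-cKO* DMSO pools. *Msln* was called as higher (5.57), *Upk3b* as lower (-1.83) and *Wt1* was not called (0.56). *Lrrn4* was not well above background in any channel. By in situ hybridization the paper also placed *Upk3b* in superficial and intermediate cells of the control urothelium. The 11 urothelial markers summed to 496900 to 551600 in control and 445800 to 492600 in *Pparg-cKO* DMSO pools. Of them *Upk1a* (-1.34) and *Upk1b* (-1.31) were called as lower, *Epcam* (0.61) as higher and 8 were not called. The part of these cell types in the WNT values was not tested.

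**Figure D3:**
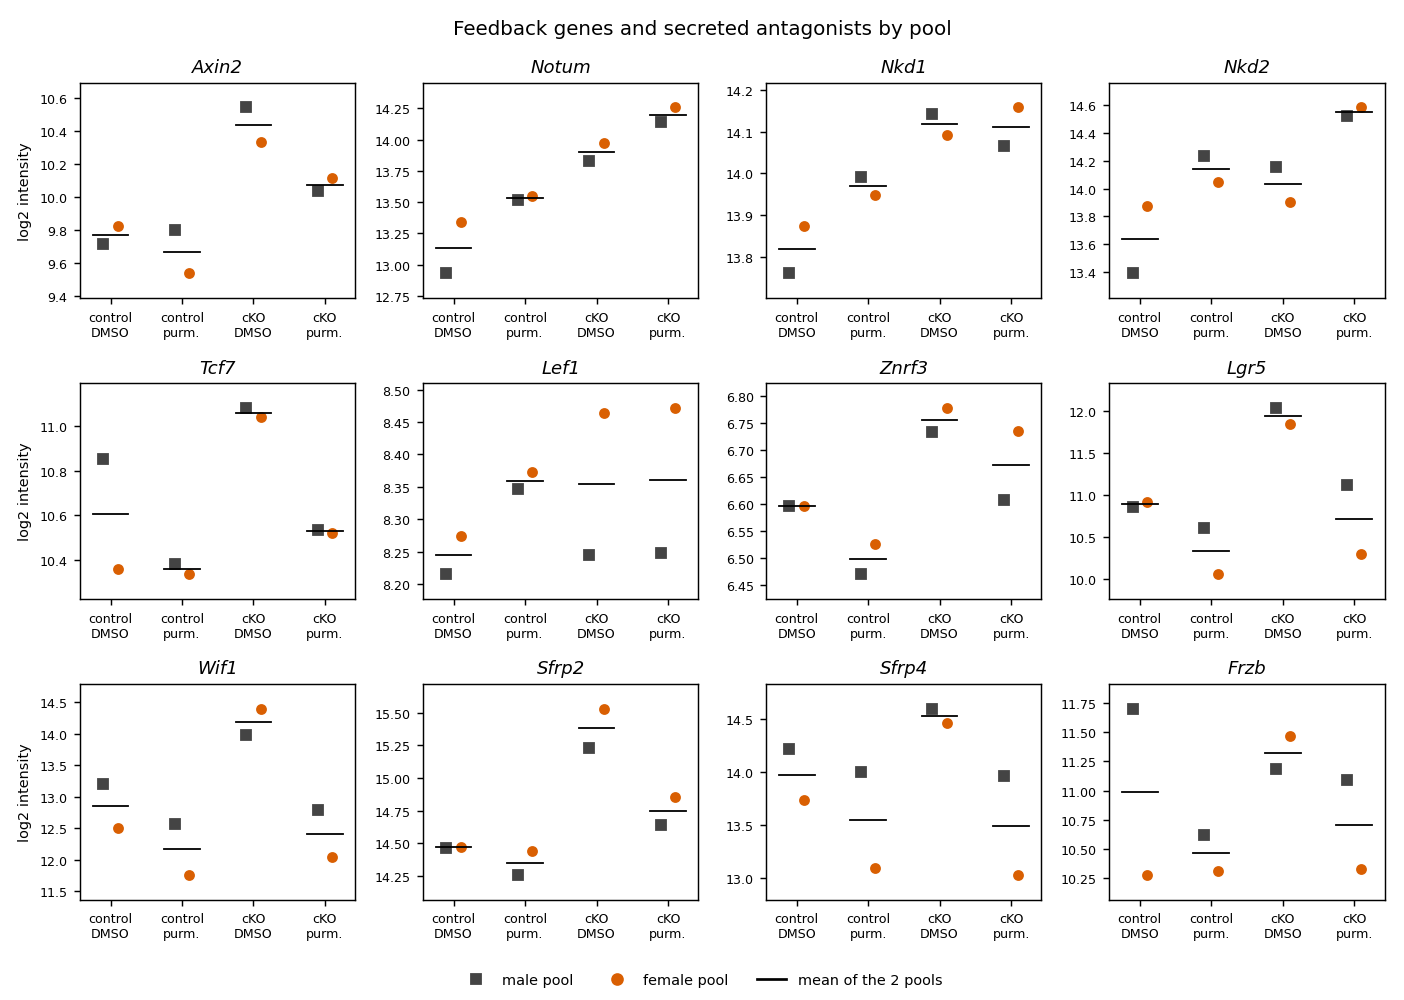
Log2 intensity (y axis, own scale per gene) of 9 feedback and read-out genes and 3 secreted Frizzled-related genes in the 4 groups (x axis), with squares for the male pool, circles for the female pool and a line at their mean. *Wif1*, *Lgr5* and *Sfrp2* peak in the *Pparg-cKO* DMSO pools, whereas *Notum* stays above control in both *Pparg-cKO* groups.

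With purmorphamine, *Pparg-cKO* ureters had lower *Wif1*, *Lgr5* and *Sfrp2* and higher *Wnt5a* and *Wnt9a* than with DMSO. As higher, 2 of the 43 tested members passed, where 2.02% of all tested genes did, and as lower 3 passed, where 3.10% did. The median over the tested members was 0.0053, against -0.0024 over all genes, with 22 members above 0 and 21 below. This comparison shares the *Pparg-cKO* DMSO pools with the genotype comparison above, so that a high value in those pools raises one difference and lowers the other. *Hhip* and *Ptch1*, feedback targets of SHH signaling, rose by 2.19 ± 0.20 (adjusted p = 0.0164) and 1.62 ± 0.12 (adjusted p = 0.014) on the log2 scale, and *Gli1* by 1.34 ± 0.25 without passing (adjusted p = 0.0515).

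*Wif1* had the largest decrease. From 13.97 and 14.39 with DMSO it fell to 12.79 and 12.04 with purmorphamine in *Pparg-cKO* ureters, without overlap, and the control DMSO pools were at 13.20 and 12.51. The log2 fold change was -1.77 ± 0.28 (adjusted p = 0.0389), the male pair giving -1.19 and the female pair -2.35. Its probe lies at chr10:120537079-120537138 (mm9).

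*Lgr5* went from 12.03 and 11.85 to 11.12 and 10.29, a change of -1.23 ± 0.22 (adjusted p = 0.0494), and the control DMSO pools lay between the treated mutant pools. *Sfrp2* went from 15.23 and 15.53 to 14.64 and 14.85, a change of -0.63 ± 0.11 (adjusted p = 0.0441), and stayed above the control DMSO pools at 14.47. *Sfrp4*, of the same family, was at 14.59 and 14.47 with DMSO and 13.96 and 13.03 with purmorphamine. Its change of -1.04 ± 0.22 did not pass (adjusted p = 0.072), and in control ureters *Sfrp4* was at 14.22 and 13.73 with DMSO and 14.003 and 13.09 with purmorphamine.

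Of the ligands, *Wnt5a* was at 11.38 and 11.31 with DMSO and 12.09 and 12.02 with purmorphamine. The increase of 0.71 ± 0.12 (adjusted p = 0.046) was almost equal in the 2 sexes, at 0.72 and 0.71. *Wnt9a*, a ligand known from joint and skeletal development, was at 10.43 and 10.09 and then at 11.04 and 10.96, an increase of 0.74 ± 0.13 (adjusted p = 0.0453). Their probes lie at chr14:29336664-29336723 and chr11:59146953-59147012 (mm9).

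The ligands that were higher without *Pparg* did not pass this test in either direction. Their log2 changes with purmorphamine were -0.77 ± 0.19 for *Wnt10a* (adjusted p = 0.0928), -0.54 ± 0.13 for *Wnt9b* (adjusted p = 0.0921), -0.24 ± 0.13 for *Wnt4*, -0.24 ± 0.12 for *Wnt16* and 0.36 ± 0.14 for *Wnt6*. *Axin2* changed by -0.36 ± 0.14 (adjusted p = 0.23) on the brighter and by -0.08 on the dimmer probe, *Tcf7* by -0.53 ± 0.14 (adjusted p = 0.107) and *Notum* by 0.30 ± 0.13 (adjusted p = 0.27). The feedback genes did not share a direction: 6 of the 9 had a log2 change under 0 and 3 above 0, but *Nkd1* (-0.01, with 0.25 on its second probe) and *Lef1* (0.01) lay at 0.

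*Rspo1*, an R-spondin of several epithelia and of the developing gonad, had the largest change above 0 among the members. It was at 11.38 and 10.90 in *Pparg-cKO* with DMSO and 11.97 and 12.29 with purmorphamine, and the groups did not overlap. Its change of 0.99 ± 0.27 missed the threshold (adjusted p = 0.115). Further changes above 0 that did not pass were those of *Sfrp5* (0.91 ± 0.34, adjusted p = 0.211, with 0.30 in males and 1.52 in females), *Sfrp1* (0.56 ± 0.12, adjusted p = 0.0696), *Dkk3* (0.62 ± 0.15, adjusted p = 0.0859) and *Fzd4* (0.53 ± 0.17, adjusted p = 0.15).

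By the study's filter, *Rspo1*, *Wnt5a* and *Wnt9a* were higher with purmorphamine in *Pparg-cKO* ureters, 3 of 31 members where 3.88% of 15402 genes were, and *Lgr5*, *Sfrp2*, *Sfrp4* and *Wif1* were lower, 4 of 31 where 4.79% were. The limma calls moved with single arrays. Without the female *Pparg-cKO* array 0 members were called. Without the male one *Sfrp2*, *Wnt5a* and *Wnt9a* were lost and *Sfrp4* and *Sfrp5* were gained, and without either control array *Wif1* was lost. The summed intensity of the 6 smooth muscle markers was 276700 to 317700 with DMSO and 487600 to 586600 with purmorphamine in *Pparg-cKO* pools. In control pools it was 256500 to 349500 with DMSO and 485900 to 490900 with purmorphamine. In *Pparg-cKO* pools the 5 endothelial markers summed to 14270 to 15240 with DMSO and 28390 to 32640 with purmorphamine, with *Tek* and *Cdh5* called as higher. The 9 mesenchymal markers summed to 359300 to 392800 and 537400 to 542700, and the 5 macrophage and leukocyte markers to 103400 to 114800 and 69890 to 77760. Of the mesenchymal markers 8 had a log2 change above 0, with *Pdgfrb* and *Tbx18* called as higher. The lamina propria marker *Aldh1a2* went the other way, at -0.36 ± 0.14, and was not called. The 11 urothelial markers summed to 445800 to 492600 with DMSO and 513200 to 515600 with purmorphamine in *Pparg-cKO* pools. Of them *Upk1a*, *Upk1b* and *Upk2* were called as higher, *Epcam* as lower and 7 were not called. The kidney markers *Umod*, *Slc12a1* and *Nphs1* were called as lower with purmorphamine in *Pparg-cKO* ureters. Their part in the WNT values was not tested.

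**Figure D4:**
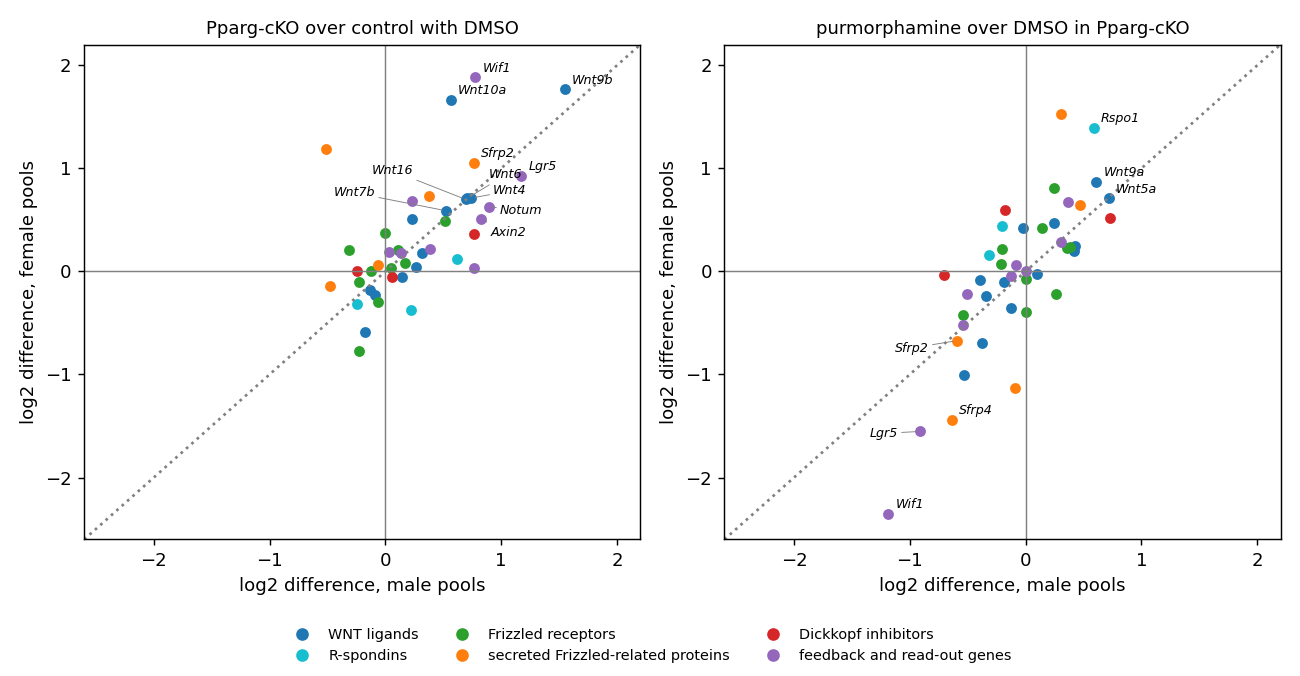
Log2 difference of the male pools (x axis) against that of the female pools (y axis) for the 43 tested members in 2 comparisons, with the dotted line marking equal differences and names for the members that limma or the study's filter took as changed. The named members have the same sign in both sexes, and *Wif1* lies farther from 0 in the female pair (1.88 and -2.35) than in the male pair (0.78 and -1.19).

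In control ureters, 0 of the 43 tested members passed limma's test with purmorphamine, where 0.405% of all tested genes passed as higher and 1.12% as lower, and 14 members had an unadjusted p under 0.05, of which 12 were above 0, where 19.6% of all tested genes had such a p. *Ptch1* rose by 1.00 ± 0.12 (adjusted p = 0.0427). The largest changes above 0 were those of *Rspo1* and *Wnt6*. *Rspo1* was at 11.16 and 11.27 with DMSO and 12.64 and 11.95 with purmorphamine, 1.08 ± 0.27 higher (adjusted p = 0.13), and *Wnt6* was at 10.13 and 10.07 and then at 10.77 and 11.10, 0.84 ± 0.14 higher (adjusted p = 0.0717). Neither gene overlapped between the treatments. *Wnt10b* changed by 0.66 ± 0.11 (adjusted p = 0.0664) and *Wnt5a*, at 11.55 and 11.90 with DMSO and 12.33 and 12.33 with purmorphamine, by 0.61 ± 0.12 (adjusted p = 0.0962). *Wnt9a* was at 10.17 and 10.04 with DMSO and 10.51 and 10.63 with purmorphamine in control ureters.

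*Wif1* in control ureters went from 13.20 and 12.51 to 12.57 and 11.76, a change of -0.69 ± 0.28 (adjusted p = 0.269) in which each sex moved by a similar amount, -0.63 and -0.75, although the groups overlapped. *Lgr5*, at 10.61 and 10.06 with purmorphamine, changed by -0.55 ± 0.22 (adjusted p = 0.262), *Sfrp2* by -0.12 ± 0.11, *Fzd7* by 0.51 ± 0.15 (adjusted p = 0.163, with 0.06 on its dimmer probe), *Sfrp1* by 0.49 ± 0.12 (adjusted p = 0.124) and *Frzb* by -0.52 ± 0.35. The study's filter took *Rspo1* and *Wnt6* as higher, 2 of 31 members where 2.76% of 15321 genes were, and *Wif1* as lower, 1 of 31 where 3.69% were.

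Whether purmorphamine acted differently in the 2 genotypes was tested by the interaction. No member passed, and 0% of all tested genes did in either direction. Unadjusted, 4 of the 43 members and 670 of all genes had a p under 0.05, and the adjusted p was 1 for each of these members. One of the 4 was *Wnt9b*, whose probe was not well above background in any control pool, so that its difference is not interpretable. The others were *Sfrp2* (difference of log2 changes -0.51 ± 0.15), *Wnt10a* (-0.73 ± 0.27) and *Wif1* (-1.08 ± 0.39), and in each of these 3 the *Pparg-cKO* change was the lower one in both sexes. The purmorphamine changes of *Wif1*, *Lgr5* and *Sfrp2* called in *Pparg-cKO* are therefore not shown to differ from those in control ureters.

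With purmorphamine, 2 of the 43 tested members were higher in *Pparg-cKO* than in control ureters, *Wnt9b* and *Wnt4*, where 1.24% of all tested genes were, and 0 were lower, where 1.90% were. Without *Wnt9b* and *Wnt16*, not well above background in these control pools, 1 of 41 was called. Their values are given above. All 9 feedback genes again lay at or above 0, with a median of 0.25 and a range from 0.0002 for *Lef1* to 0.67 for *Notum*. *Sfrp2* differed by 0.40 ± 0.14 (adjusted p = 0.215), *Wif1* by 0.25 ± 0.38 and *Lgr5* by 0.37 ± 0.29. The member farthest below 0 was *Rspo2*, at 7.57 and 7.32 in control and 6.55 and 7.03 in *Pparg-cKO* pools (-0.66 ± 0.18, adjusted p = 0.124), and *Fzd9* was at -0.51 ± 0.22. Without the male control, the female control or the male *Pparg-cKO* array 0 members were called, and without the female *Pparg-cKO* array *Wnt9b* was.

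Of 70 other genes of the pathway (co-receptors, secretion factors, β-catenin regulators, planar polarity genes and further targets), 66 were tested. In *Pparg-cKO* with DMSO their median log2 difference was 0.04. As lower, 0 passed, where 1.90% of all tested genes did, and 4 passed as higher, where 2.00% did. They were *Sostdc1*, a secreted inhibitor of WNT and BMP signals (1.85 ± 0.36, adjusted p = 0.042), *Celsr2*, a planar polarity cadherin (1.00 ± 0.14, adjusted p = 0.0136), *Tnfrsf19*, a receptor induced by WNT signaling (0.84 ± 0.13, adjusted p = 0.0197), and *Rnf43*, the partner of ZNRF3 in removing Frizzled receptors (0.76 ± 0.13, adjusted p = 0.0315). Each was higher in both sexes.

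With purmorphamine in *Pparg-cKO* ureters, 3 of the 66 rose, where 2.02% of all tested genes did, and 2 fell, where 3.10% did. *Gpc3*, a cell surface glypican, rose by 2.84 ± 0.18 (adjusted p = 0.0122), *Lrp4*, an LRP-family receptor, by 0.90 ± 0.12 (adjusted p = 0.0289) and *Ndp*, which encodes Norrin, by 0.99 ± 0.17 (adjusted p = 0.0445). *Sostdc1* changed by -1.69 ± 0.14 (adjusted p = 0.0149) and *Celsr1*, another planar polarity cadherin, by -1.55 ± 0.27 (adjusted p = 0.0484). In control ureters *Gpc3* and *Lrp4* rose as well, by 2.12 ± 0.18 (adjusted p = 0.025) and 1.01 ± 0.12 (adjusted p = 0.0415), and 0 fell. Of all tested genes, 0.405% rose and 1.12% fell there. Between the genotypes with purmorphamine, *Cd44*, a surface glycoprotein, was higher by 0.57 ± 0.11 (adjusted p = 0.0444) and *Lypd6*, a membrane protein that enhances WNT receptor activity, was lower by -1.35 ± 0.20 (adjusted p = 0.0221). In that comparison 1.24% of all tested genes were higher and 1.90% lower. By the study's filter, but not by limma, *Lgr6*, an R-spondin receptor, and *Daam2*, a formin that acts with Dishevelled, were higher with purmorphamine in both genotypes, with log2 changes of 1.23 and 0.68 in *Pparg-cKO* and 1.55 and 0.92 in control ureters. The filter also took *Trabd2b* (0.63) as higher and *Myc* (-0.70) as lower with purmorphamine in *Pparg-cKO*, *Celsr1* (-1.18) as lower with purmorphamine in control, and *Lypd6* (-0.80) and *Ndp* (-0.62) as lower in *Pparg-cKO* with DMSO.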

How the data were processed

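The members and the gene lists were chosen with earlier results of these data known. The deposited intensity values, per the file headers, are the mean and local background of each spot and dye from Agilent Feature Extraction (12.2.0.7 in the headers, 10.7.3.1 in the submitters' notes), and a processed intensity with background subtracted and dye bias removed by the authors' software. The deposited log10 ratio per spot, red to green, was only used to check direction. The score deposited in the series table is a fold change with a sign (purmorphamine against DMSO), whose normalization is not given in the sources used here. Its log2 had an r of 0.995 to 0.998 with the scaled ratio. Build mm9 is named in the file headers. All 4 arrays were on 1 slide with 1 scan time.

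Mean intensities were corrected with normexp (offset 50) and loess in limma 3.58.1 (R 4.3.3), control and outlier spots having weight 0, and spots of a probe were averaged. For genotype contrasts, channels were fitted separately (lmscFit) following Aquantile normalization (intraspot correlation 0.0632), and purmorphamine contrasts used log ratios within arrays with a coefficient per genotype. All groups shared the spread. Of 39429 probes, 27064 were tested, the brightest standing for each of 20229 genes, with Benjamini-Hochberg adjustment and a threshold of 0.05. A probe counted as well above background when most of its spots were. Per channel 66.3% to 70.5% of spots were, and 0 were saturated. For the study's filter, processed signals were scaled to a 75th percentile of 1500 with a floor of 15. Its genes are those with any probe whose brighter channel exceeded 100 in each pair. The 2 pools per group limit the precision, and labels do not say how many ureters a pool held. A bound is against the lowest signal well above background. Named are members called or passing the filter, the 9 feedback genes and the member of each family that differed most. RefSeq accessions matched 63 of the 64 probes of the members. The scripts were tested on simulated data. One marker gene is not reported here and was left out of its list.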

Additional observations from a re-analysis of the deposited data

How the results depend on the processing

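Alternatives concern the 8, 5, 0, 0 and 2 members called by limma for *Pparg-cKO* with DMSO, purmorphamine in *Pparg-cKO*, purmorphamine in control, the interaction and *Pparg-cKO* with purmorphamine. The cause of each shift was not tested. Among the named members' values under these alternatives, none reversed direction, 95 lost the call, 2 gained it and 167 stayed on their side of the threshold. Same-numbered pools share sex and dye only, and their deviations had an r of -0.15 between the DMSO groups and 0.47 between the purmorphamine groups. With the replicate block the genotype calls were 2 with DMSO (*Sfrp2* and *Wnt9b*) and 1 with purmorphamine (*Wnt9b*), *Wnt4* having an adjusted p of 0.0536 and 0.0568, and with crossed numbers, an alternative chosen after seeing the data, 1 with DMSO. With processed signals scaled to the 75th percentile the calls were 2 for *Pparg-cKO* with DMSO, 0 for purmorphamine in *Pparg-cKO* and 1 for *Pparg-cKO* with purmorphamine. With all probes tested they were 4 and 0 for the first and second of these. Purmorphamine in *Pparg-cKO* gave 1 with a normexp offset of 10 and 0 with the fold changes of the series table. Leaving out each array gave 0 to 2, 0 to 4 and 0 to 1 calls for these 3 comparisons, with the intraspot correlation kept and the lone pool taken to vary like the other groups. Purmorphamine in control and the interaction gave 0 in each of 11 alternatives. Of the other pathway genes, 10 were called in any comparison, 2 with processed signals and 7 to 8 with an array left out. The study's filter took 7, 7 and 3 members. At 2-fold it took 0, 1 and 0, without an intensity threshold 5 of the control comparison, and with 1 sex 10 to 13, 9 to 14 and 6 to 11. *Wnt9b* with DMSO kept its call in 11 of 12 alternatives, losing it without the female control array. The alternatives rest on the same pools, and its probe was not well above background in any control pool. They are therefore no separate support for the call.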
